A study of Mus musculus with 22 samples.

Results

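The genes of the AP-1 family, Fos, Fosb, Fosl1, Fosl2, Jun, Junb and Jund, were examined for binding sites and histone marks in mouse MC3T3-E1 cells, a pre-osteoblastic line that forms mineralized matrix. A region was counted for a gene when its centre lay within 100 kb of an annotated start of that gene (build mm9, GENCODE vM1). By this rule 764 of 360258 regions in 22 lists belonged to the 7 genes, namely 216 of 91886 transcription factor sites and 548 of 268372 histone regions.

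All lists came from chromatin immunoprecipitation sequencing (ChIP-seq) of this line at passages 5 to 12. Undifferentiated cells and cells kept for 15 days in ascorbic acid and glycerol-2-phosphate received ethanol vehicle or 100 nM 1,25(OH)2D3 (calcitriol, the hormonal form of vitamin D) for 3 h. The vitamin D receptor (VDR) and its partner RXR were mapped under vehicle and calcitriol in each state. C/EBPβ, RUNX2 and the histone marks H4K5ac, H3K9ac, H3K4me1, H3K4me3 and H3K36me3 were mapped with calcitriol only; vehicle lists for these antibodies were not analysed here. Differentiated cultures were also homogenized and spun through sucrose to remove matrix, so state and preparation cannot be told apart. The protocol text names H3K5Ac where the sample labels give H4K5Ac, and the sample labels were followed. Each group had 1 list, built by the authors from their replicates, so no spread between cultures could be measured and no difference below was tested. Factor lists held between 274 and 17950 sites of 201 bp and histone lists between 6983 and 53858 regions. No read numbers come with the regions, the depth is unknown, and more binding cannot be told apart from deeper sequencing. To look at the label, markers of cell types were searched for H3K4me3. A start lay in an H3K4me3 region for 5 of 11 osteoblast markers in each state (Runx2, Sp7, Col1a1, Col1a2 and Spp1). Over all genes the shares were 35.0% in undifferentiated and 42.3% in differentiated cells. The osteoblast count is near these shares, so it cannot settle the label. Alpl, Ibsp, Bglap, Bglap2, Dmp1 and Phex had no H3K4me3 region over a start in either state. Of 4 chondrocyte markers, Sox9 and Col2a1 were covered in undifferentiated and Sox9 in differentiated cells, and no adipocyte, muscle, blood or endothelial marker was covered.

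AP-1 is a dimer of basic leucine zipper proteins. Jun proteins can pair with each other or with Fos proteins, whereas Fos proteins bind DNA in pairs with other zipper proteins, and the dimers recognize the element TGACTCA. Several of the genes are immediate early genes, which are transcribed within minutes of a growth signal, and Fos, Fosb, Fosl1 and Fosl2 (encoding c-Fos, FosB, Fra-1 and Fra-2) are known for roles in bone formation and bone resorption. Calcitriol acts through VDR, which binds DNA with RXR, classically at a direct repeat with 3 bases between its parts (DR3). RUNX2 is the transcription factor required for osteoblast formation, and C/EBPβ is a leucine zipper factor active in osteoblasts.

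The genes differed in surroundings, and a site near a crowded gene may serve a neighbour. Fos (ENSMUSG00000021250.7) lies on the forward strand at chr12:86814840-86818223 with 1 other protein-coding gene starting within 100 kb. Fosb lies on the reverse strand at chr7:19888070-19895394 with 10 such neighbours. Fosl1 lies on the forward strand at chr19:5447703-5455945 with 15, and Fosl2 on the forward strand at chr5:32438845-32460204 with 3. Jun lies on the reverse strand at chr4:94715725-94718913 with 1. Junb, on the reverse strand at chr8:87500811-87502617, had 15, and Jund, on the forward strand at chr8:73221638-73224515, had 12. Distances below are from the nearest annotated start of the named gene, negative upstream.

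Sequences are shown for some of the VDR sites found with calcitriol that were called in both states, held a DR3 match with at most 1 mismatch, or lay nearest to a start. Sites touching an untranslated region are not shown. The sites of 201 bp are printed from mm9, forward strand, 5′ to 3′, and capitals mark motif matches on either strand. The searched motifs were DR3, RUNX (TGTGGT or TGCGGT), C/EBP (TTGCNNAA or TTACNNAA) and AP-1 (TGACTCA), and no match in capitals overlaps another. Sites called in both states are given as called in differentiated cells with calcitriol.
Fosl2 at 55.7 kb, intergenic, chr5:32494426-32494626, both states, RUNX, DR3 and AP-1 in capitals, in that order: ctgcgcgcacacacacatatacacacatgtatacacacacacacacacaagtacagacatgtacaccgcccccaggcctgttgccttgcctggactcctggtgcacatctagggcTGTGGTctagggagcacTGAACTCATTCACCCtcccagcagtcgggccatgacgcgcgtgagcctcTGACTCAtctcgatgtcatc
Junb at -58.0 kb, promoter of Tnpo2, chr8:87560557-87560757, both states, AP-1 in capitals: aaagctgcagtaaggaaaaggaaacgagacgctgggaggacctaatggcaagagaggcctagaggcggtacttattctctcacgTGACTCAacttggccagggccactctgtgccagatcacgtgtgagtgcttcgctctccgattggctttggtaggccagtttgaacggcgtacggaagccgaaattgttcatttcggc
Junb at -6.3 kb, intergenic, chr8:87508861-87509061, undifferentiated, DR3 in capitals: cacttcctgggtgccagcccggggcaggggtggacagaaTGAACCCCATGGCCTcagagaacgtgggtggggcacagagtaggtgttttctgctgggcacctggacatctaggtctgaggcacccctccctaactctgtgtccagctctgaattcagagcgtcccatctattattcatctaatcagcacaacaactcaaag
Jund at -52.3 kb, intergenic, chr8:73169219-73169419, undifferentiated, RUNX and then DR3 in capitals: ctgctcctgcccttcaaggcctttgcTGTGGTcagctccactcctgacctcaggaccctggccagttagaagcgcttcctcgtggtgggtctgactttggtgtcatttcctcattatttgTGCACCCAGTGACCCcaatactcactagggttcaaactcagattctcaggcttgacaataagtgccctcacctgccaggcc
Fos at 49.4 kb, intergenic, chr12:86865201-86865401, undifferentiated, no match: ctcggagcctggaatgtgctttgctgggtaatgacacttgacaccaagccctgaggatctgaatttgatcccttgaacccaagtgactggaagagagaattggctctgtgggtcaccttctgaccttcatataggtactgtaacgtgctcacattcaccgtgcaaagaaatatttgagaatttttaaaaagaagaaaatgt
Fosl2 at -0.9 kb, promoter of Fosl2, chr5:32437802-32438002, undifferentiated, C/EBP in capitals: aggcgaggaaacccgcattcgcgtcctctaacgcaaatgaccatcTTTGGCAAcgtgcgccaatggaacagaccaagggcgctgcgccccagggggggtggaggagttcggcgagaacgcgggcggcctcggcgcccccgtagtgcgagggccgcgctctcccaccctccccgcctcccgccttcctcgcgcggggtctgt
Another 2 sites were added after their values were seen, because each overlapped sites of RXR, C/EBPβ and RUNX2 in undifferentiated cells.
Fosl1 at 81.9 kb, intergenic, chr19:5529463-5529663, RUNX in capitals: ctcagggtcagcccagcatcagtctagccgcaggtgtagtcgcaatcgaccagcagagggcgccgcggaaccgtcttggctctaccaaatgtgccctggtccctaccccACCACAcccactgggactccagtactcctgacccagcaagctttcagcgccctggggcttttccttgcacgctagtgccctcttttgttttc
Fosl2 at -46.8 kb, intergenic, chr5:32391924-32392124, RUNX and then AP-1 in capitals: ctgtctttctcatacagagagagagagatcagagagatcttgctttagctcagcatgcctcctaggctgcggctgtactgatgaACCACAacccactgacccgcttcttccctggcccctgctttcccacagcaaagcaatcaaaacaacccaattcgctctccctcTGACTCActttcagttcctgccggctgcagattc

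Of the 7 genes, Fosl2 had the most VDR sites with calcitriol in undifferentiated cells, and Fosl1 had the most under vehicle. With calcitriol, undifferentiated cells held 7 VDR sites within 100 kb of Fosl2, 4 near Fosl1, 3 near Junb, 2 each near Fosb and Jund, 1 near Fos and 0 near Jun. Thus 6 of the 7 genes had at least 1 site, against 40.8% of 22350 protein-coding genes. The median was 2 sites over the 7 genes and 0 over all genes. Only 243 genes (1.09%) had as many VDR sites as Fosl2 or more, while 1306 genes (5.84%) had as many as Fosl1 or more. Jun had no VDR or RXR site in any list. Within 50 kb the counts were 4 at Fosl2, 2 each at Fosl1 and Junb, 1 each at Fos and Fosb and 0 at Jun and Jund. When a site was given only to its nearest gene, Fosl2 had 2, Fos 1 and the others 0.

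**Figure D1:**
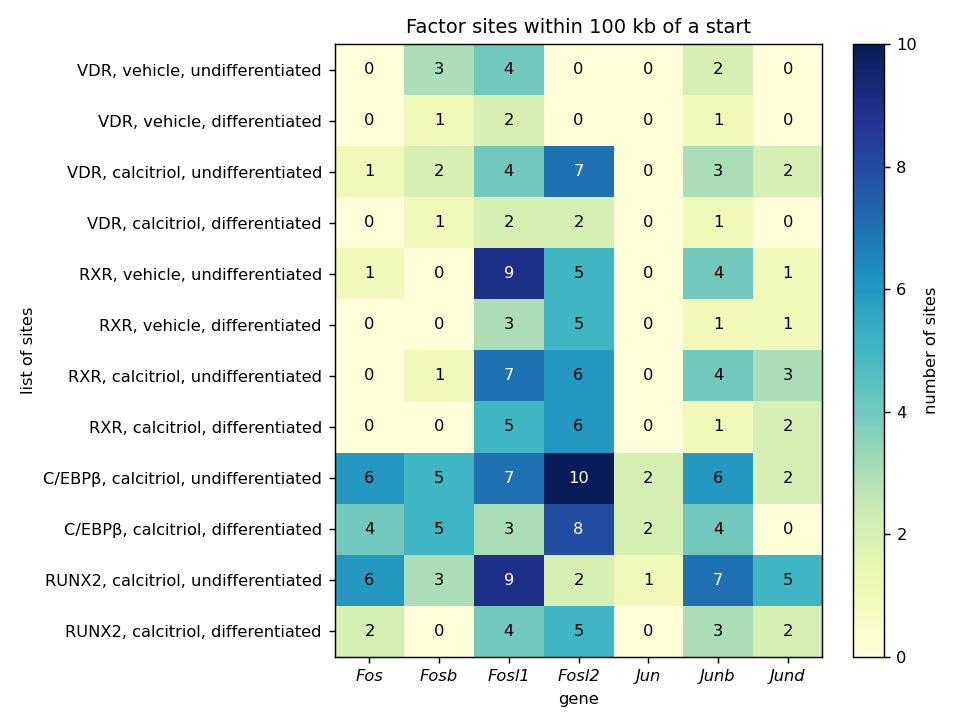
Number of factor sites within 100 kb of a start of each gene (columns) in the 12 factor lists (rows); colour and printed digits give the count. Fosl2 goes from 0 VDR sites under vehicle to 7 with calcitriol in undifferentiated cells, and Jun has 0 in every VDR and RXR row.

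Under vehicle, the VDR sites of undifferentiated cells lay near Fosl1 (4), Fosb (3) and Junb (2), and the other 4 genes had 0. As many sites as at Fosl1 or more were counted at 0.421% of all genes. Genes with at least 1 site numbered 3 of 7, against 15.7% of all genes. With calcitriol more VDR sites were called near Fos, Fosl2, Junb and Jund, 4 of the 7 genes, against 32.8% of all genes. Fosb had fewer, 2 in place of 3, as did 1.33% of all genes, and Fosl1 had 4 in each list. The 4 Fosl1 vehicle sites lay only between Eif1ad and Banf1 and at the promoters of Fibp and Mus81. More than 1 of them therefore fell in the same locus, and the calcitriol list added 1 site at 81.9 kb. Fos, Fosl2 and Jund went from 0 sites to at least 1, a pattern of 25.9% of all genes. The total near the 7 genes was 9 sites under vehicle and 19 with calcitriol. Of the 9 vehicle sites, 7 were called again with calcitriol (77.8%; exact 95% interval 40.0 to 97.2, counting error only), against 83.8% over the whole vehicle list. The calcitriol list added 13 sites that overlapped no vehicle site, 7 of them at Fosl2. Of its 19 sites near the 7 genes, 6 overlapped a vehicle site (31.6%), against 11.2% of the whole calcitriol list. The sites no longer called were those of Fosb at 14.0 kb, in an untranslated region of Rtn2, and at 38.4 kb, in the promoter of Vasp, which encodes an actin regulator.

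In differentiated cells the VDR list was short, with 871 sites in all with calcitriol. Near the 7 genes it held 2 sites each at Fosl1 and Fosl2, 1 each at Fosb and Junb, and 0 at Fos, Jun and Jund. These are 4 of 7 genes, against 12.1% of all genes, and 1.83% of genes had 2 sites or more. The differentiated vehicle list held 2 sites at Fosl1 and 1 each at Fosb and Junb, so that 3 of 7 genes had a site, against 6.13%, and 0.658% of genes had as many as Fosl1 or more. Fosl2 alone among the 7 had more VDR sites with calcitriol than under vehicle in differentiated cells (2 and 0), as did 6.87% of all genes. All 4 vehicle sites were called again with calcitriol (exact 95% interval 39.8 to 100), against 92.3% of the whole list.

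The VDR sites found under vehicle and called again with calcitriol lay at the promoters of neighbouring genes. Near Fosb, a site at -35.1 kb in the promoter of Ercc1, a DNA repair gene, was in all 4 VDR lists. Near Fosl1, sites at -80.9 kb, between the starts of Eif1ad and Banf1, and at 40.7 kb, in the promoter of the endonuclease gene Mus81, were in all 4 VDR lists. The Fosl1 site at 13.0 kb, in the promoter of Fibp, was in both undifferentiated lists. Near Junb, a site at -58.0 kb in the promoter of Tnpo2, a nuclear import gene, was in all 4 lists, and its sequence above holds TGACTCA. A site at -11.8 kb from Junb, in the promoter of Hook2, was in both undifferentiated lists. None of the 9 vehicle sites of undifferentiated cells held a DR3 match, against 2.77% of that list.

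The Fosl2 sites, in contrast, were in neither vehicle list. Fos, Jun and Jund also had no VDR site under vehicle in either state, as did 84.1% of all genes. In undifferentiated cells with calcitriol the Fosl2 sites included those at -46.8, -3.3, -0.9, 3.3, 55.7 and 64.8 kb. The site at -0.9 kb was the only VDR site to overlap the 1 kb to either side of a start of any of the 7 genes. VDR sites overlapped this interval at 5.22% of all genes. The other VDR lists had 0 such sites at the 7 genes, against 2.97% of all genes under vehicle in undifferentiated cells, and 1.08% under vehicle and 1.57% with calcitriol in differentiated cells. The site at 3.3 kb lay in an intron of Fosl2, and the one at -3.3 kb lay in the promoter of the predicted gene Gm10463. Of the 7 sites, 2 were called again in differentiated cells, among them that at 55.7 kb. The 55.7 kb site held a DR3 match, printed above as TGAACTCATTCACCC on the forward strand. Around 55.7 kb RXR was called in both states with calcitriol and in neither state under vehicle.

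Other hormone-dependent VDR sites were few. Fos had its 1 VDR site at 49.4 kb, where no other factor was called in either state. Fosb gained a site at -50.4 kb, in the promoter of Ppp1r13l, an inhibitor of p53, where RXR was also called with calcitriol. Fosl1 gained the site at 81.9 kb, which lay in sites of RXR, C/EBPβ and RUNX2. Junb gained the site at -6.3 kb, with RXR and a DR3 match. Jund gained a site at -52.3 kb, with a DR3 match and no other factor, and a site at 78.1 kb in the promoter of Pik3r2, which encodes a regulatory subunit of phosphoinositide 3-kinase, with RXR and RUNX2. DR3 matches were thus found at 3 of the 19 calcitriol sites (15.8%), near Fosl2, Junb and Jund, against 14.8% of the whole list. Each of the 3 had 1 mismatch, and 0 were exact. In differentiated cells 1 of 6 sites had a match, against 24.0% of that list.

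**Figure D2:**
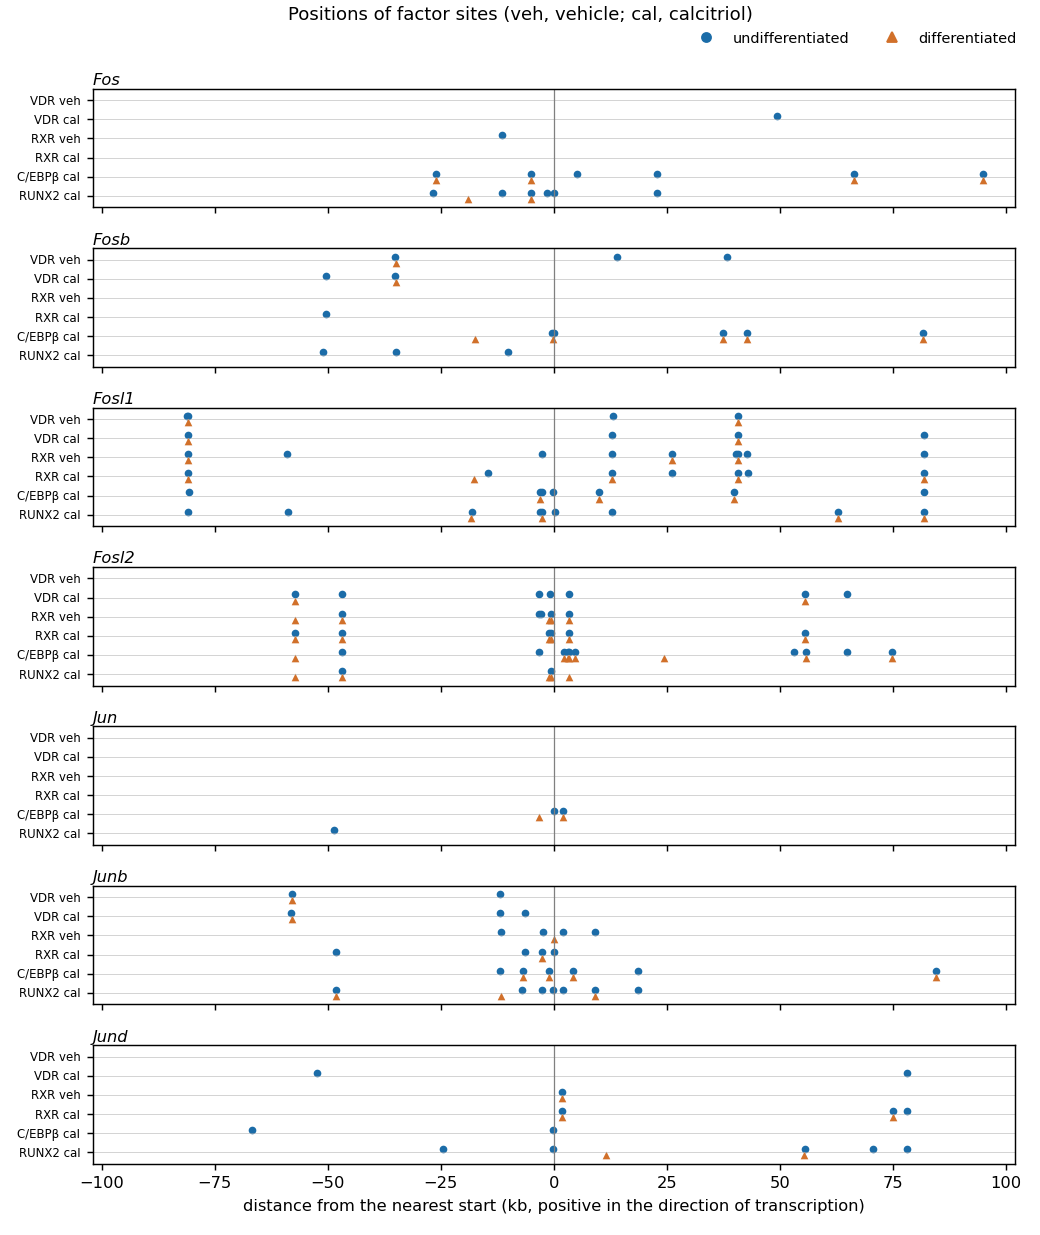
Positions of factor sites relative to the nearest start of each gene (x axis, kb) in vehicle (veh) and calcitriol (cal) lists; blue circles are undifferentiated and orange triangles differentiated cells. Fosl2 has 7 VDR sites with calcitriol on both sides of its start and none under vehicle, while the VDR sites of Fosb, Fosl1 and Junb include positions shared by vehicle and calcitriol lists.

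RXR was near these genes without hormone. In undifferentiated cells under vehicle, Fosl1 had 9 RXR sites, Fosl2 5, Junb 4, Fos and Jund 1 each, and Fosb and Jun 0. The 5 genes with a site compare with 44.2% of all genes. With calcitriol Fosl1 had 7, Fosl2 6, Junb 4, Jund 3, Fosb 1 and Fos and Jun 0, again 5 genes, against 43.8%. The totals, 20 and 21, were near each other, yet 11 of the 20 vehicle sites were called again (55.0%, 31.5 to 76.9), against 67.3% of the whole list. More RXR sites with calcitriol were counted at Fosb, Fosl2 and Jund (15.0% of all genes) and fewer at Fos and Fosl1 (17.6%). At Junb the count was 4 in each list, but only 1 of the 4 vehicle sites was called again.

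In differentiated cells RXR sites numbered 5 at Fosl2, 3 at Fosl1 and 1 each at Junb and Jund under vehicle, and 6, 5, 1 and 2 with calcitriol. These 4 genes compare with 33.5% and 43.7% of all genes. Fosl1, Fosl2 and Jund had more sites with calcitriol, against 26.9% of all genes, and 0 genes of the 7 had fewer, against 4.17%. Of the 10 vehicle sites 8 were called again (80.0%, 44.4 to 97.5), against 88.6% overall. At Fosl2, all 5 vehicle sites were called again and the added site was the one at 55.7 kb. RXR lay at the promoter of Fosl2 in all 4 lists. It lay at that of Junb with calcitriol in undifferentiated cells and under vehicle in differentiated cells. RXR sites overlapped the 1 kb to either side of a start at 7.41% (vehicle) and 6.87% (calcitriol) of all genes in undifferentiated, and 4.61% and 6.69% in differentiated cells. At Jund, a site at 1.8 kb, in the promoter of the predicted gene Gm11175, was in all 4 RXR lists and in no other list.

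Of the 19 VDR sites found with calcitriol in undifferentiated cells, 12 overlapped an RXR site (63.2%, 38.4 to 83.7), against 60.0% of the whole VDR list. C/EBPβ overlapped 7 (36.8%, 16.3 to 61.6; whole list 44.1%) and RUNX2 6 (31.6%, 12.6 to 56.6; whole list 54.0%). The 3 sites with no other factor were those of Fos at 49.4 kb, Junb at -58.1 kb and Jund at -52.3 kb. In differentiated cells 4 of 6 VDR sites overlapped RXR (66.7%, 22.3 to 95.7), against 66.0% of the list. At Fosl2, 5 of 7 undifferentiated VDR sites overlapped C/EBPβ sites (at -46.8, -3.3, 3.3, 55.7 and 64.8 kb) and 1 overlapped RUNX2 (at -46.8 kb).

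C/EBPβ had more sites near these genes than any other factor in each state, and its lists were also the longest. In undifferentiated cells it had 10 sites near Fosl2, 7 near Fosl1, 6 each near Fos and Junb, 5 near Fosb and 2 each near Jun and Jund. All 7 genes had a site, against 65.8% of all genes, and the median was 6 sites, against 1 over all genes. In differentiated cells the counts were 8 near Fosl2, 5 near Fosb, 4 each near Fos and Junb, 3 near Fosl1, 2 near Jun and 0 near Jund. These 6 genes compare with 61.1%. A C/EBPβ site overlapped the 1 kb to either side of a start at Fosb, Fosl1, Jun, Junb and Jund in undifferentiated cells (11.3% of all genes), and at Fosb and Junb in differentiated cells (8.58%). The Junb sites reached this interval only with their edge, their centres lying at -1100 and -1054 bp. At Jun the undifferentiated sites lay at the start and at 2.0 kb, in an untranslated region of the gene, and the latter was called in both states. A C/EBP match was found at 15 of 38 undifferentiated sites (39.5%), against 53.3% of the list, and at 15 of 26 differentiated sites (57.7%), against 56.5%.

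RUNX2 sites of undifferentiated cells numbered 9 near Fosl1, 7 near Junb, 6 near Fos, 5 near Jund, 3 near Fosb, 2 near Fosl2 and 1 near Jun. All 7 genes had a site, against 59.6% of all genes, with a median of 5 against 1. RUNX2 sites overlapped the same interval at Fos, Fosl1, Fosl2, Junb and Jund, which compares with 13.1% of all genes. The Fos site was centred at -18 bp. In differentiated cells the counts were 5 near Fosl2, 4 near Fosl1, 3 near Junb, 2 each near Fos and Jund, and 0 near Fosb and Jun. These 5 genes compare with 46.5%, and Fosl2 was the only one of the 7 with RUNX2 in that interval, against 6.26% of all genes. A RUNX match was found at 17 of 33 undifferentiated sites (51.5%), against 64.5% of the list, and at 12 of 16 differentiated sites (75.0%), against 68.6%.

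Between the states, Fosl2 differed from the other genes in the direction of its RUNX2 count. Fewer RUNX2 sites in differentiated cells were counted at 6 genes, Fos, Fosb, Fosl1, Jun, Junb and Jund, against 42.1% of all genes. More were counted at Fosl2 (5 and 2), as at 8.72% of all genes. The differentiated Fosl2 sites included those at -46.8, -1.1, -0.7 and 3.4 kb, and the undifferentiated ones lay at -46.8 and -0.7 kb. Of the 33 undifferentiated RUNX2 sites near the 7 genes, 10 were called again in differentiated cells (30.3%, 15.6 to 48.7), against 43.1% of the whole list.

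For VDR with calcitriol, 6 genes had fewer sites in differentiated cells, against 36% of all genes, and 0 had more, against 0.318%. Of the 19 sites 6 were called again (31.6%, 12.6 to 56.6), against 11.3% of the whole list. Outside them lay 0 differentiated sites, against 80 of 871 in the whole differentiated list. Those 6 included the Ercc1, Mus81 and Tnpo2 promoter sites, the site between Eif1ad and Banf1, and the Fosl2 site at 55.7 kb. RXR sites with calcitriol were fewer at Fosb, Fosl1, Junb and Jund (17.7% of all genes), and 13 of 21 were called again (61.9%), against 61.6% of the list. At Fosl2 all 6 undifferentiated RXR sites were called again. C/EBPβ sites were fewer at Fos, Fosl1, Fosl2, Junb and Jund (32.0% of all genes), and 22 of 38 were called again (57.9%), against 64.7%.

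Overlapping sites of the 12 lists were joined into 84 loci. Of these, 28 were in 1 list, 31 carried at least 2 factors, 12 at least 3 and 6 all 4. Factors were pooled over states and treatments, so those of 1 locus need not have been called in the same condition. Loci were not joined over the whole lists, so these counts have no share over all loci beside them. The loci with all 4 factors were 3 near Fosl2 (among them -46.8 and 3.4 kb), 2 near Fosl1 (-81.0 and 81.9 kb) and 1 near Junb (-11.8 kb). At 3.4 kb from Fosl2, VDR was called only in undifferentiated and RUNX2 only in differentiated cells. At -11.8 kb from Junb, RXR was called only under vehicle in undifferentiated cells and RUNX2 only in differentiated cells. The locus in most lists, 10 of 12, was that between Eif1ad and Banf1. At Fosl2 the loci at -46.8 and 3.4 kb were each in 8 lists. Jun had 4 loci, each with 1 factor, and Fos had 12 loci, of which 3 carried C/EBPβ or RXR together with RUNX2. For 34 of the 84 loci the nearest protein-coding gene was the AP-1 gene itself, among them all 4 loci at Jun, 10 of 12 at Fos and 1 of 10 at Jund. Another 30 loci lay in the promoter of a different gene, 10 of them near Fosl1.

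Each mark had at least 1 region within 100 kb of all 7 genes in both states. In undifferentiated cells this held for 83.1% of all genes for H4K5ac, 78.2% for H3K9ac, 84.0% for H3K4me1, 66.3% for H3K4me3 and 75.4% for H3K36me3. In differentiated cells the shares were 80.9%, 79.8%, 84.3%, 72.2% and 74.2%. All 7 genes had H4K5ac and H3K9ac, marks of active chromatin, over a start in both states. Over all genes the shares were 53.5% and 53.3% for H4K5ac, and 49.6% and 51.4% for H3K9ac, in undifferentiated and differentiated cells. H3K4me3, the mark of active promoters, covered a start of 6 genes in undifferentiated cells, all but Fosb (35.0% of all genes). It covered 5 in differentiated cells, all but Fosb and Fosl1 (42.3%). H3K4me1, a mark of enhancers and promoter flanks, covered a start of 5 genes, all but Fosl2 and Jun, in undifferentiated cells (52.7%) and of all 7 in differentiated cells (55.4%). H3K36me3, the mark of transcribed gene bodies, covered a start of 0 genes in both states, against 28.0% and 25.7%.

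The H3K4me3 regions over the starts were narrower in differentiated cells at every gene that had one in both states. The Fos region was 19293 bp wide in undifferentiated and 3218 bp in differentiated cells. At Fosl2 the widths were 22097 and 7507 bp. At Jun they were 10271 and 5161 bp, at Junb 20293 and 4078 bp, and at Jund 6496 and 3051 bp. Fosl1 had a region of 37492 bp, wider than all but 0.831% of its list, and no region over its start in differentiated cells. The wide region reached 30998 bp downstream of the Fosl1 start, over the promoters of the neighbours Ccdc85b, Fibp and Efemp2. Differentiated cells had separate regions of 5865 and 2637 bp within that stretch. The whole lists differed in the same direction, with a median width of 5256 bp in undifferentiated and 2225 bp in differentiated cells. Fosl2 kept a wide region for its list: 0.578% of the differentiated H3K4me3 regions were as wide or wider, against 3.71% in undifferentiated cells.

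**Figure D3:**
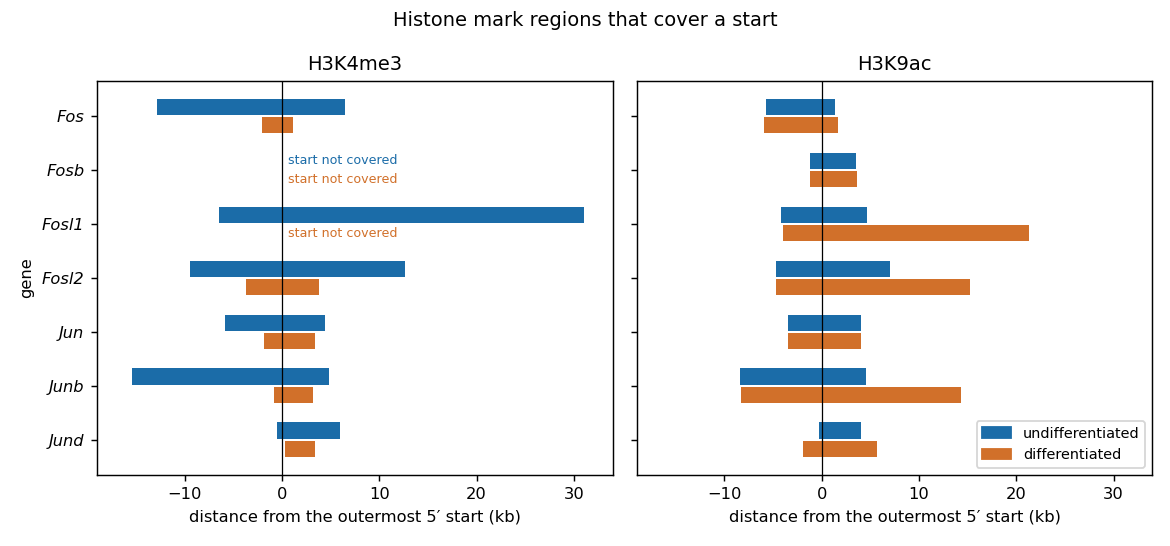
Extent of the H3K4me3 and H3K9ac regions that cover a start of each gene (x axis, kb from the outermost 5′ start, positive in the direction of transcription) in undifferentiated (blue) and differentiated (orange) cells. H3K4me3 bars are shorter in differentiated cells at Fos, Fosl2, Jun, Junb and Jund, and the H3K9ac bars of Fosl2 are 11664 and 19901 bp wide. The differentiated H3K4me3 bar of Jund covers a start further downstream.

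Within 100 kb of the starts, H4K5ac and H3K4me1 covered more at Fosl1 and Fosl2 than at the other 5 genes. In undifferentiated cells H4K5ac covered 74.1% of the window at Fosl2, 61.0% at Fosl1, 43.6% at Jund, 31.2% at Junb, 26.8% at Jun, 25.9% at Fos and 24.0% at Fosb. The median over all protein-coding genes was 14.2%, and 0.761% of genes had as much as Fosl2. H3K4me1 was highest at the same genes, with 61.3% at Fosl2 and 60.5% at Fosl1, against a median of 17.6% over all genes. Jun had 31.3%. H3K36me3 ranged from 1.97% at Fos to 48.3% at Fosl1, around a median of 24.4% over all genes, and was 26.5% at Fosl2.

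Among the 7 genes, H3K9ac coverage differed most between the states at Fosl2. Its window held 3 H3K9ac regions covering 17.0 kb (8.49%) in undifferentiated cells and 11 regions covering 53.9 kb (26.9%) in differentiated cells. Genes with as much coverage made up 26.0% and 3.25% of all genes in the 2 states. The region over the Fosl2 start was 11664 and 19901 bp wide. The regions over the starts of Fosl1 (8760 and 25244 bp), Junb (12853 and 22627 bp) and Jund (4303 and 7583 bp) were also wider in differentiated cells. At Fosl1 and Junb the wider region also spanned a neighbouring region that was separate in undifferentiated cells, 11207 bp wide near Fosl1 and 7012 bp near Junb. The widths at Fosb (4728 and 4835 bp) and Jun (7468 and 7505 bp) were near each other. At Jund the coverage was 19.9% and 32.6%, and at Fosl1 34.3% and 41.7%. Fos (9.48% and 10.2%), Fosb (18.2% and 20.4%), Jun (7.25% and 9.19%) and Junb (22.3% and 25.9%) differed less. The median over all genes was 4.19% and 5.27%. H3K4me3 coverage was lower in differentiated cells at all 7 genes, most at Fosl1 (37.6% and 13.9%) and least at Jund (9.63% and 8.54%), with medians over all genes of 2.97% and 1.72%. Of the 19 undifferentiated VDR sites, 11 lay in H3K4me3 (57.9%, 33.5 to 79.7), against 20.0% of the whole list, and 15 lay in H3K9ac (78.9%, 54.4 to 93.9), against 60.6%. The H3K4me3 shares of the other factors with calcitriol in undifferentiated cells were also above those of their lists. They were 81.0% against 24.2% for RXR, 60.5% against 18.7% for C/EBPβ and 63.6% against 26.7% for RUNX2.

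**Figure D4:**
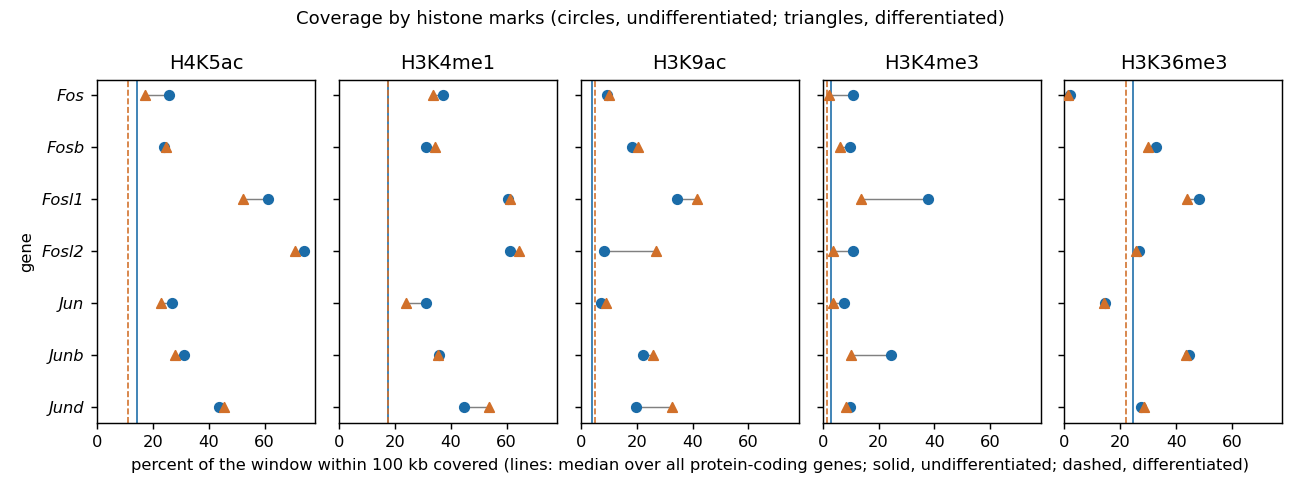
Percent of the window within 100 kb of the starts of each gene covered by each histone mark, in undifferentiated (circles) and differentiated cells (triangles); vertical lines give the median over all protein-coding genes. Fosl2 H3K9ac coverage is 8.49% and 26.9%, and the H3K4me3 triangles lie left of the circles for all 7 genes.

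Other genes of the pathway were counted in the same way with calcitriol in undifferentiated cells, where 40.8% of all genes had a VDR site. Among 12 partners of AP-1 proteins in the leucine zipper family, 11 had a VDR site, with a median of 2. Jdp2, Maff and Mafk had the most, 3 each, and Jdp2, which encodes a Jun-binding repressor, shares part of its window with Fos. More sites with calcitriol than under vehicle were counted for 10 of the 12 (32.8% of all genes) and fewer for 0. Among 13 kinases, phosphatases and transcription factors upstream of AP-1, 4 had a VDR site. Dusp1, which encodes a phosphatase that inactivates MAP kinases, had the most, 4. More sites with calcitriol were counted for 3 of the 13 and fewer for 0.

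Among 12 other immediate early genes, 10 had a VDR site, with a median of 3. Ier3 had 7, as many as Fosl2, and 3 under vehicle, where Fosl2 had 0. Ier2 and Cyr61 had 4 each. More sites with calcitriol were counted for 9 of the 12 and fewer for 1, Nr4a1. Among 10 genes known as AP-1 targets in bone cells, 7 had a VDR site, with a median of 2, and all 7 had more with calcitriol. Spp1, which encodes osteopontin, had 11 and Cd44, its receptor, had 5. Spp1 and Mmp13, a collagenase gene, had 4 and 2 VDR sites in differentiated cells with calcitriol, and the other 8 had 0. Over all genes 12.1% had a VDR site in that list.

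The genes most like each member were sought by the sum of absolute differences in site counts over the 12 factor lists, among genes over 1 Mb away. For Fosl2 the nearest were 1700054O19Rik and Zcchc24, each at a sum of 9, and A930005H10Rik and Dph5 at 10. For Fosl1 they were Sp1 at 11 and Ttc9c and Hnrnpul2 at 12. For Fos, 5 genes tied at 4, and for Fosb, Junb and Jund 9, 10 and 17 genes stood at or within the third place. Jun had 5 factor sites in all, under the 10 needed for this search. Some of these genes lie side by side and share sites.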

How the data were processed

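Per the submitters' processing notes, reads were handled with Bowtie and HOMER on build mm9, with versions and calling thresholds not given in the sources used here. The deposited lists have 6 columns, and the score column deposited by the authors is 0 in every factor list; in histone lists its meaning is not given. Region names count merged peaks, and 70.4% to 99.6% of regions per list were merged from 2, so a list was taken to hold regions found in the replicates together.

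Chromosomes 1 to 19 and X were used with mm9 (NCBIM37) and GENCODE vM1, which holds 22350 protein-coding gene identifiers (22208 names). Sites sharing at least 1 bp were called shared. Shares carry exact Clopper-Pearson 95% intervals that cover counting error only. A site centred within 1 kb of a start was annotated as a promoter site, whereas shares of genes with a site at the start count any overlap with that interval. Motifs were searched on both strands. RefSeq promoters (GRCm38.p6, 250 bases before to 50 after a start) matched 6 of 7 genes by symbol. Python 3.11.15, pandas 2.3.3, numpy 2.4.6, scipy 1.17.1 and pysam 0.24.0 were used, and the scripts were tested on simulated data.

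The members, gene lists and comparisons were chosen with earlier results of these data known. Named were all 7 members, the 2 genes per list with the most VDR sites with calcitriol in undifferentiated cells (with ties), and list genes sharing sites with a member; Nr4a1 and Mmp13 were named after their values were seen. Some names and sequences that these rules select are not reported here.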

Additional observations from a re-analysis of the deposited data

Results flagged for a closer look

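RXR sites near Fosl1 went in opposite directions with calcitriol in the 2 states. In undifferentiated cells the count was 9 under vehicle and 7 with calcitriol, a difference of -2. In differentiated cells it was 3 and 5, a difference of 2. Each count comes from 1 list, and the difference between the states was not tested. The whole RXR lists differed in the same directions. They held 7834 sites under vehicle and 7591 with calcitriol in undifferentiated cells, and 4815 and 8126 in differentiated cells. Fewer RXR sites with calcitriol were counted at 17.6% of all genes in undifferentiated cells, and more at 26.9% in differentiated cells. Of the 9 undifferentiated vehicle sites near Fosl1, 6 were called again with calcitriol (66.7%), near the 67.3% of the whole list.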

How the results depend on the processing

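No paired analysis was possible because each group had 1 list and the labels carry no shared replicate numbers. With the outermost start only, with overlaps of at least 100 bp, and with centres within 500 bp, all values computed (22, 20 and 20) stayed within 1.5 times their main count or inside their interval. For mark coverage this interval took each kb of the windows as a separate trial, though neighbouring kb share regions. It measures no spread there and serves only as a cut-off for calling a value moved. Within 50 kb, 19 of 42 moved. VDR sites were 10 with calcitriol in undifferentiated cells, and 2 under vehicle and 2 with calcitriol in differentiated cells; RXR sites with calcitriol in differentiated cells were 9. Calcitriol sites not called under vehicle were 6 (VDR) and 5 (RXR) in undifferentiated cells and 0 and 3 in differentiated cells. None (0%) of the differentiated VDR sites overlapped C/EBPβ or RUNX2. Coverage within 50 kb in undifferentiated and differentiated cells was 47.4% and 44.2% for H4K5ac, 22.4% and 29.2% for H3K9ac, 48.2% and 48.8% for H3K4me1 and 23.9% and 22.3% for H3K36me3, and 23.5% for H3K4me3 in undifferentiated cells. Coverage by H3K4me1 in undifferentiated cells was 40.4% without the lowest 25% of regions by score. When only sites nearest to a member were counted, all 12 counts were lower by over 1.5 times. For VDR they were 0 under vehicle and 3 with calcitriol in undifferentiated cells (1 at Fos, 2 at Fosl2), and 0 and 0 in differentiated cells. For RXR they were 6, 5, 4 and 4, for C/EBPβ 17 and 13, and for RUNX2 16 and 6. Exact DR3 matches were 0 in both states, and within the central 100 bp the undifferentiated VDR sites held 1 match in place of 3. Smaller windows and stricter rules count fewer sites by construction.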

Other observations

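The AP-1 element TGACTCA was found at sites near 5 of the 7 genes, all but Jun and Jund. The share of all genes with such a site was not computed. Jun and Jund had the fewest factor sites, 5 and 18, against 20 to 59 near the others. The whole factor lists held the element at 2.92% to 13.0% of their sites. Whether 5 genes exceeds what these site numbers give was not tested. Near Fosl2 the element lay at the sites at -46.8, -0.7 and 55.7 kb, which were called for RXR in both states. Of the differentiated RXR sites with calcitriol near the 7 genes, 5 of 14 held the element (35.7%), against 13.0% of that list, and 3 of these 5 were at Fosl2. In undifferentiated cells the shares were 4 of 21 (19.0%) and 11.3%. Near Junb it was found at the VDR site at -58.0 kb, at -2.5 kb under RXR and RUNX2 sites, and at 3 places in the undifferentiated RUNX2 site at -7.0 kb. Near Fosl1 it lay in the undifferentiated RUNX2 promoter site at 0.2 kb, near Fos in the C/EBPβ site at 95.0 kb and near Fosb in the differentiated C/EBPβ site at -17.4 kb. The related cyclic AMP element TGACGTCA was found in the promoter site of Jund at -0.2 kb, shared by C/EBPβ and RUNX2 in undifferentiated cells, and at 0.396% of all undifferentiated C/EBPβ sites.

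In the RefSeq promoters of 6 of the genes, 1 RUNX match was found, at position 33 of Fosl2, and 1 C/EBP match, TTGCTCAA at -152 of Jund. These motifs were found in 22.4% and 18.5% of 32851 promoters. AP-1, DR3, cyclic AMP and CArG matches were found in 0 of the 6, against 5.20%, 1.73%, 1.79% and 1.63% of promoters.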
